A study of Homo sapiens with 6 samples.

Results

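The genes described here are 34 genes of the major histocompatibility complex (MHC) and of antigen presentation. They were taken from the deposited table of 58735 genes as the rows on standard chromosomes whose gene name is on a list of class I chains, class II chains, peptide loading factors, immunoproteasome subunits, regulators and stress ligands. All 34 names were found, each once, with 23 genes on chromosome 6 and 11 on other chromosomes. The rule uses gene names and no measured value, although the list was drawn up with earlier results of these data known. RNA sequencing was performed in MM.1S, a long-established cell line from human multiple myeloma, with 3 control libraries (si-NC, a non-targeting siRNA) and 3 *PRMT1* KD libraries (si-*PRMT1*). The siRNA was used at 100 nM and the cells were collected at 72 h. *PRMT1* encodes an arginine methyltransferase, and the study asked how its loss alters gene expression in myeloma cells. Which *PRMT1* siRNA was used for these libraries is not named, and all libraries come from a single cell line.

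MHC class I molecules display peptides from inside the cell to CD8+ T cells and are found on nearly all nucleated cells. Proteasomes cut proteins into peptides, the TAP transporter moves these into the endoplasmic reticulum, and tapasin and ERAP aminopeptidases load and trim them on a heavy chain paired with beta-2 microglobulin. MHC class II molecules display peptides from lysosomes to CD4+ T cells. Their genes depend on the transactivator CIITA, which is silenced when B cells become plasma cells, the normal counterpart of myeloma.

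Values were FPKM, fragments scaled by gene length and library size, which can be compared between genes because they are scaled by length. The FPKM values times gene length came in whole steps, each worth 1 read, so reads per gene were worked back. The libraries held 14439217 to 16465026 reads on genes. *PRMT1* itself was 61.7, 62.8 and 58.9 FPKM in control and 13.3, 14.0 and 12.5 FPKM in *PRMT1* KD. This was 21.7% of the control mean, and the difference of -2.13 on the log2 scale passed the test (limma adjusted p = 2.77e-05, standard error 0.0552). All 7 plasma cell markers (*SDC1*, *TNFRSF17*, *CD38*, *XBP1*, *PRDM1*, *IRF4* and *SLAMF7*) had a mean of at least 1 FPKM and summed to 766 to 778 FPKM in control and 729 to 782 FPKM in *PRMT1* KD libraries. Of these, *SLAMF7*, a plasma cell surface receptor, fell from a mean of 38.0 to 23.8 FPKM (limma adjusted p = 0.00515), and its part in the results below was not tested. The other 6 did not pass the test, with *CD38* higher (1.92 and 2.45 FPKM) and *XBP1* (287 and 262 FPKM) and *PRDM1* (18.1 and 15.9 FPKM) lower in *PRMT1* KD without overlap (limma adjusted p = 0.193, 0.133 and 0.136). The 6 B cell markers, of which *CIITA* is also 1 of the 34 genes, summed to 1.42 to 1.88 FPKM and 1.36 to 1.95 FPKM. Most of that sum was the transcription factor *PAX5* (means of 1.11 and 1.02 FPKM), and *MS4A1*, which encodes CD20, had 0 reads in every library. The 5 myeloid markers summed to 0.150 to 0.304 FPKM and 0.103 to 0.323 FPKM with *FCGR3A* at 0, and the 3 stromal markers to 0.0925 to 0.116 FPKM and 0.0504 to 0.0694 FPKM with *COL3A1* at 0. The 4 T and NK cell markers summed to 34.2 to 37.8 FPKM and 37.6 to 39.9 FPKM. Almost all of that sum was *CD3E*, at a mean of 33.4 FPKM in control and 38.1 FPKM in *PRMT1* KD, while *CD2* had 1 read over the 6 libraries. *CD3D*, the partner of *CD3E* in the T cell receptor complex, was at 0.678 and 0.132 FPKM. Without overlap, *CD3E* lay higher (limma adjusted p = 0.135) and *CD3D*, which was not tested, lower in *PRMT1* KD. *NKG7* was at 1.33 and 0.842 FPKM, overlapping (limma adjusted p = 0.263).

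MM.1S cells carried an abundant class I mRNA pool, few class II reads were counted, and *PRMT1* KD moved none of the tested genes past the threshold. Of the 34 genes, 22 had a mean of at least 1 FPKM and were tested, and 12 lay under this filter. With limma and Benjamini-Hochberg adjustment over all 13585 genes tested, 0 of the 22 had an adjusted p under 0.05, where 2.05% of all genes tested did. Their adjusted p ranged from 0.156 to 0.972. At an unadjusted p under 0.05, 4 of the 22 passed (*MICB*, *HLA-C*, *HLA-B* and *HLA-DRA*), against 19.5% of all genes tested. limma's voom on the reads worked back also called 0 of the 22, against 6.82% of all genes tested. The 3 *PRMT1* KD libraries all lay above the 3 control libraries for 3 of the 22 genes (*HLA-DRA*, *RFX5* and *MICB*), against 13.6% of all genes tested. They all lay below them for 3 others (*HLA-B*, *HLA-C* and *RFXANK*), against 12.3%. The log2 difference was above 0 for 14 genes and below 0 for 8, with a median of 0.057 beside 0.0095 over all genes tested. The 95% interval of the difference lay within 0.5 of 0 on the log2 scale for 18 of the 22 genes and within 1 of 0 for all 22. In bulk RNA, a smaller share of cells with a transcript and less transcript per cell cannot be told apart. Differences and intervals below are on the log2(FPKM + 1) scale unless a ratio or voom is named, and on that scale changes of genes with low FPKM look smaller than they are.

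**Figure D1:**
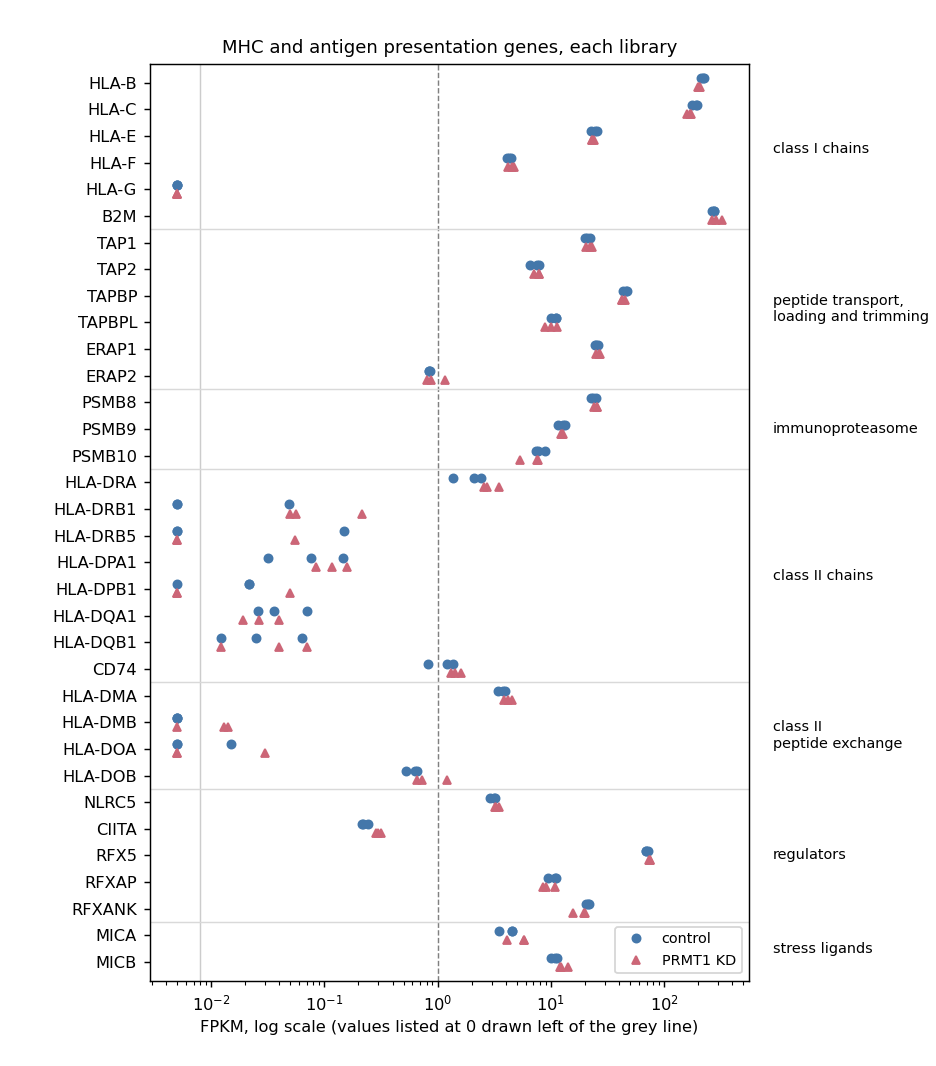
FPKM (log axis) of each of the 34 genes in the 3 control libraries (circles) and the 3 *PRMT1* KD libraries (triangles), grouped by role, with a dashed line at 1 FPKM. *B2M*, *HLA-B* and *HLA-C* stand highest, the class II chains other than *HLA-DRA* and *CD74* lie under 1 FPKM, and the symbols of the groups lie close together in most rows.

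The class I light chain and the classical heavy chains were the most abundant of the 34. *B2M*, which encodes beta-2 microglobulin, the light chain shared by class I molecules (ENSG00000166710, chromosome 15, 44711487 to 44718877, plus strand, GRCh38), ranked 95th of the 58735 genes by its control mean. It was 274, 267 and 279 FPKM in control and 264, 286 and 322 FPKM in *PRMT1* KD. The groups overlapped, and replicate 3 of *PRMT1* KD was the highest. The difference was 0.085 (95% interval -0.086 to 0.256, limma adjusted p = 0.559), and 0.010 without *PRMT1* KD replicate 3. Levels per kilobase depend on the gene length used. The deposited length of *B2M*, 6079 bases, is the union of all annotated exons, while its principal coding transcript has 1705 bases. Scaled by that transcript, the control mean was 973 FPKM for *B2M*, 434 FPKM for *HLA-B*, 308 FPKM for *HLA-C* and 122 FPKM for *TAPBP*, which makes these the first 4 of the tested genes. *RFX5* ranked 4 and *TAPBP* 5 by the deposited length, and the other way round by the transcript.

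*HLA-B* and *HLA-C* encode classical heavy chains that hold the peptide, and HLA-C is also a main ligand of inhibitory receptors on NK cells. *HLA-B* (ENSG00000234745, chromosome 6, 31269491 to 31357188, minus strand) was 222, 224 and 214 FPKM in control and 204, 199 and 209 FPKM in *PRMT1* KD. The highest *PRMT1* KD library lay just under the lowest control library. The mean was 220 ± 5.48 FPKM (SD, n = 3) in control and 204 ± 5.10 FPKM (SD, n = 3) in *PRMT1* KD, a difference of -0.11 (95% interval -0.20 to -0.010, limma adjusted p = 0.216). *HLA-C* (ENSG00000204525, chromosome 6, 31268749 to 31272130, minus strand) was 192, 197 and 176 FPKM in control and 169, 173 and 158 FPKM in *PRMT1* KD. The groups did not overlap, though the lowest control library and the highest *PRMT1* KD library were close. The difference was -0.17 (95% interval -0.31 to -0.036, limma adjusted p = 0.166). For these and the 4 other tested genes without overlap an exact two-sided permutation p was 0.1, which is the lowest that 3 libraries against 3 can reach.

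*HLA-E* and *HLA-F* encode nonclassical heavy chains, HLA-E being the ligand of the NKG2A receptor. *HLA-E* was 25.8, 24.7 and 22.8 FPKM in control and 22.9, 23.2 and 24.1 FPKM in *PRMT1* KD, and *HLA-F* was 4.27, 4.13 and 4.45 FPKM against 4.76, 4.54 and 4.19 FPKM. Both overlapped, with differences of -0.059 (limma adjusted p = 0.61) and 0.057 (limma adjusted p = 0.69). *HLA-G*, best known from the placenta, had 0 reads in every library, and a count of 0 allows up to 3 reads in a library. The summed level of the 6 class I chains was 717, 717 and 696 FPKM in control and 665, 686 and 717 FPKM in *PRMT1* KD, and the sums overlapped (exact two-sided permutation p = 0.3). The ratio of *B2M* to the sum of *HLA-B* and *HLA-C*, chosen after the values were seen, was 0.662, 0.633 and 0.714 in control and 0.708, 0.768 and 0.876 in *PRMT1* KD. The lowest *PRMT1* KD ratio lay under the highest control ratio (exact two-sided permutation p = 0.2). The stretch from *HLA-F* to *TAPBP* on chromosome 6 (29722775 to 33314387) holds 23 of the 34 genes, of which 13 were tested and 0 were called. Of the 288 other genes listed inside it, 96 were tested. Of these, 4 (4.17%) had a limma adjusted p under 0.05, 1 higher and 3 lower, against 2.05% of all genes tested.

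**Figure D2:**
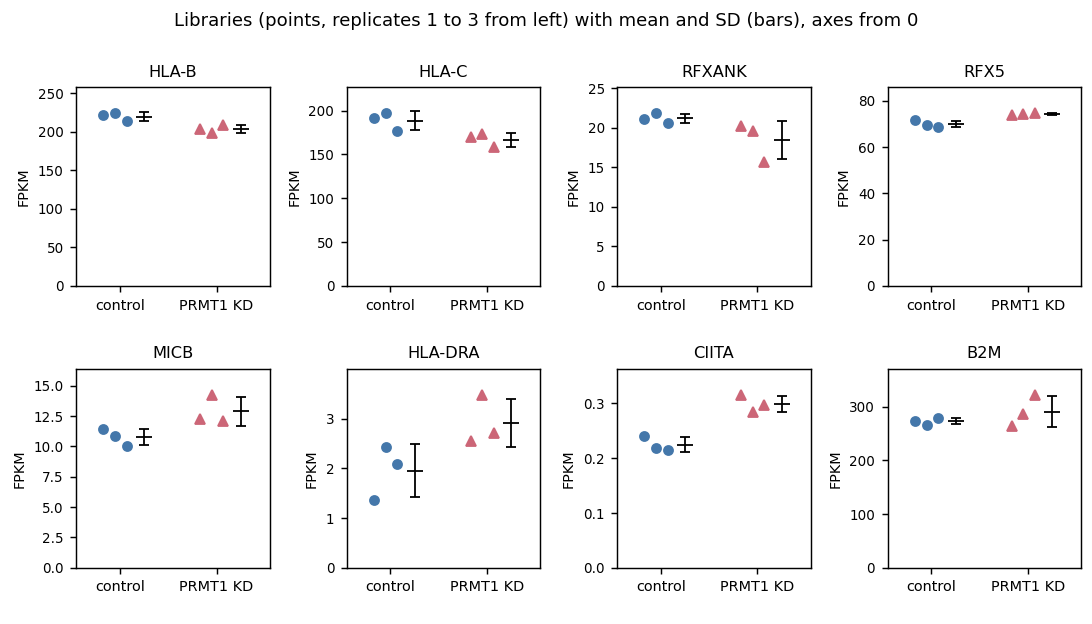
FPKM of 8 genes in each library (control, circles; *PRMT1* KD, triangles; replicates 1 to 3 from left), with mean and SD (n = 3) as bars and all axes from 0. *HLA-B*, *HLA-C* and *RFXANK* sit lower and *RFX5*, *MICB*, *HLA-DRA* and *CIITA* higher in the *PRMT1* KD libraries without overlap, by steps that are small beside the level itself for *HLA-B* (92.8% of control) and *RFX5* (106% of control), while *B2M* overlaps.

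Class I promoters are known to carry sites for NF-kB and interferon regulatory factors and an inverted CCAAT box, the Y box. Their sequences are shown because they are the DNA through which the regulators described further on act. The 200 bases before the gene start, from RefSeq on GRCh38.p14, are given 5′ to 3′ on the gene's strand for *B2M* (chr15:44711317-44711516, plus) and *HLA-B* (chr6:31357180-31357379, minus). Capitals mark matches on either strand to GAAANNGAAA (letters of an interferon response element), CCAAT (Y box) and GGGGATTC (kappa B site of class I genes).
B2M: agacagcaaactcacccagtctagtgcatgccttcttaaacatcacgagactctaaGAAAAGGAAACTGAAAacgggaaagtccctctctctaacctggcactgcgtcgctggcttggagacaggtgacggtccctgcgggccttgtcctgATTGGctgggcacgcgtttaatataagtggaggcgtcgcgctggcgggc
HLA-B: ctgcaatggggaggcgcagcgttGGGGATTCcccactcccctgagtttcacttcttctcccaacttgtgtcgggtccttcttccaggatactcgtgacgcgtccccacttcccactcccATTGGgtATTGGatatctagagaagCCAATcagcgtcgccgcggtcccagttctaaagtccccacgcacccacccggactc
In *B2M* the GAAANNGAAA matches start at -144 and -138 from the gene start and overlap, and a CCAAT match starts at -49. In *HLA-B* the GGGGATTC match starts at -177 and the CCAAT matches at -81, -74 and -56. Promoters of 300 bases (250 before and 50 after the start) were found for 30 of the 34 genes, but not for *HLA-E*, *HLA-DRA*, *CIITA* and *NLRC5*. GAAANNGAAA matched in at least 1 promoter of 10 of the 30 genes, among them *HLA-F*, *TAP1*, *TAP2*, *TAPBP*, *ERAP1* and *PSMB8*, and in 3.57% of all 35116 promoters. GGGGATTC matched in *HLA-B*, *HLA-C*, *HLA-G* and *RFXAP*, and in 0.888% of all promoters, and CCAAT in 21 of the 30 genes and in 34.6% of all promoters. Here and below, genes are counted if any of their promoters matched (42 promoters for the 30 genes), while the shares are per promoter. The gene counts and the shares are thus not directly comparable. A match describes letters only and was not tested as a binding site.

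The genes that supply and load class I peptides were expressed at lower levels than *B2M*, *HLA-B* and *HLA-C* and gave 0 calls among the 8 tested. *TAP1* and *TAP2* encode the subunits of the peptide transporter. *TAP1* was 22.04, 20.70 and 20.05 FPKM in control and 22.99, 22.02 and 20.49 FPKM in *PRMT1* KD, a difference of 0.058 (limma adjusted p = 0.642). *TAP2* was 7.58, 7.83 and 6.54 FPKM against 7.11, 7.87 and 7.84 FPKM, a difference of 0.051 (limma adjusted p = 0.763). *TAP1* had the higher FPKM of the pair in every library. *TAP2* shares 32.3% of its exon bases with the readthrough gene AL669918.1 on the same strand. Of the 100-base stretches of its principal coding transcript, 79.8% also occur in AL669918.1. The counting could have split or dropped its reads, so these values do not settle which of the pair was more abundant. *TAPBP* encodes tapasin, which bridges the transporter and the heavy chain, and *TAPBPL* encodes the related peptide editor TAPBPR. *TAPBP* was 46.1, 46.7 and 43.7 FPKM against 45.5, 42.8 and 42.4 FPKM, a difference of -0.060 (limma adjusted p = 0.539). *TAPBPL* was 11.02, 11.20 and 10.02 FPKM against 11.28, 10.11 and 8.90 FPKM, a difference of -0.087 (limma adjusted p = 0.632), and of -0.0069 without *PRMT1* KD replicate 3.

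The trimming aminopeptidase *ERAP1* was 25.0, 25.8 and 24.5 FPKM in control and 25.3, 26.5 and 27.4 FPKM in *PRMT1* KD, a difference of 0.069 (95% interval -0.046 to 0.185, limma adjusted p = 0.483). *ERAP2*, its partner, lay under the filter at 0.846, 0.835 and 0.864 FPKM against 0.881, 0.805 and 1.16 FPKM. Both overlapped between the groups, and *ERAP1* mRNA exceeded *ERAP2* mRNA in all 6 libraries.

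Immunoproteasome subunits replace the catalytic subunits of the constitutive proteasome and shift which peptides are cut. *PSMB8* was 23.8, 24.9 and 22.8 FPKM in control and 25.7, 24.0 and 25.7 FPKM in *PRMT1* KD (difference 0.073, limma adjusted p = 0.495). *PSMB9* was 12.8, 13.3 and 11.5 FPKM against 12.5, 12.9 and 12.4 FPKM (difference 0.0056, limma adjusted p = 0.972). *PSMB10* was 8.90, 7.76 and 7.41 FPKM against 7.78, 7.53 and 5.31 FPKM (difference -0.21, 95% interval -0.53 to 0.11, limma adjusted p = 0.448). In each of the 3 the groups overlapped, and the *PSMB10* difference was -0.057 without *PRMT1* KD replicate 3, its lowest library. *PSMB10* shares 34.8% of its exon bases with AC040162.1 on the same strand. Each subunit was then set against the constitutive subunit it replaces within the same library. The ratio of *PSMB8* to *PSMB5* was 0.533, 0.549 and 0.525 in control and 0.589, 0.560 and 0.606 in *PRMT1* KD. The groups did not overlap, with a log2 difference of 0.13 (exact two-sided permutation p = 0.1, the smallest possible, and 0.3 after Benjamini-Hochberg adjustment over the 3 ratios). The ratio of *PSMB9* to *PSMB6* was 0.183, 0.192 and 0.170 against 0.187, 0.190 and 0.201 (exact permutation p = 0.3, adjusted 0.45). The ratio of *PSMB10* to *PSMB7* was 0.146, 0.135 and 0.130 against 0.150, 0.138 and 0.0969 (exact permutation p = 0.9, adjusted 0.9). The constitutive subunits themselves had differences of -0.049 for *PSMB5* (limma adjusted p = 0.542), -0.079 for *PSMB6* (limma adjusted p = 0.433) and -0.12 for *PSMB7* (limma adjusted p = 0.231), so the separated *PSMB8* ratio combines a higher numerator mean and a lower denominator mean, neither of which passed the test.

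**Figure D3:**
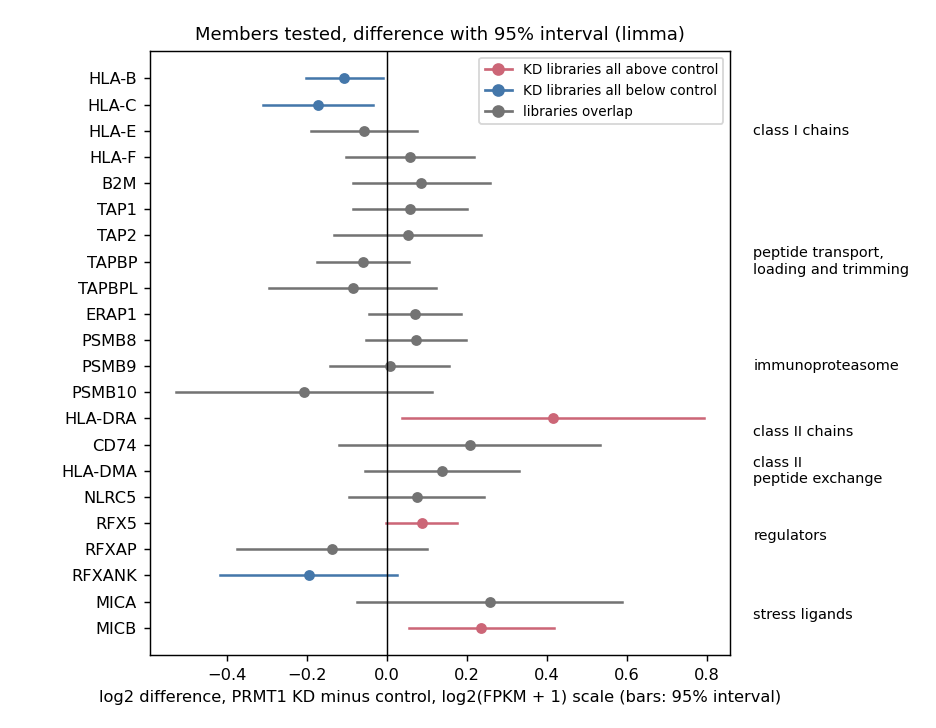
Log2 difference (*PRMT1* KD minus control, log2(FPKM + 1) scale) of the 22 tested genes by role, with limma's 95% interval as bars and colour by whether the libraries of the groups overlap. The intervals of *HLA-B*, *HLA-C*, *HLA-DRA* and *MICB* leave out 0, and after adjustment 0 of the 22 genes had a p under 0.05.

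Class II read counts were near the limit of detection for most chains. *HLA-DRA* encodes the alpha chain of HLA-DR (ENSG00000204287, chromosome 6, 32439842 to 32445046, plus strand). It was 1.37, 2.42 and 2.08 FPKM in control and 2.55, 3.47 and 2.72 FPKM in *PRMT1* KD, from 29, 50 and 44 reads against 54, 64 and 53 reads. The *PRMT1* KD libraries all lay above the control libraries, and the *PRMT1* KD mean was 149% of the control mean. The difference was 0.41 (95% interval 0.037 to 0.79, limma adjusted p = 0.218) and 0.26 without control replicate 1, its lowest library. *CD74* encodes the invariant chain, which blocks the peptide groove until the lysosome is reached. It was 1.21, 0.818 and 1.37 FPKM against 1.62, 1.31 and 1.42 FPKM, and the groups overlapped (difference 0.21, limma adjusted p = 0.459, and 0.095 without control replicate 2, its lowest library).

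The listed beta chains that would pair with HLA-DRA were almost unread. Whether the reference genome matches the HLA alleles of MM.1S was not tested, so low counts do not settle how much mRNA was present. *HLA-DRB1* had 1, 0 and 0 reads in control against 1, 1 and 4 in *PRMT1* KD, and *HLA-DRB5* had 0 to 3 reads in any library. Among the DP and DQ chains, *HLA-DPA1* had 3 to 14 reads, *HLA-DQA1* 2 to 8, *HLA-DQB1* 1 to 5 and *HLA-DPB1* 0 to 2. At these depths no difference between the groups was detectable. The summed level of the 8 class II chains was 2.88, 3.56 and 3.55 FPKM in control and 4.38, 5.14 and 4.57 FPKM in *PRMT1* KD. The groups did not overlap, and *HLA-DRA* and *CD74* made up nearly all of the sum (exact two-sided permutation p = 0.1). *HLA-DMA* and *HLA-DMB* encode the subunits of HLA-DM, which exchanges peptides on class II molecules, and *HLA-DOA* and *HLA-DOB* those of its inhibitor HLA-DO. *HLA-DMA* was 3.96, 3.79 and 3.41 FPKM against 4.18, 3.84 and 4.56 FPKM, overlapping (difference 0.14, limma adjusted p = 0.411). *HLA-DMB* was listed at 0 in the control libraries and had 1, 0 and 1 reads in *PRMT1* KD, and *HLA-DOA* had 0 to 2 reads. *HLA-DOB* lay under the filter with 22, 17 and 21 reads in control and 22, 21 and 37 in *PRMT1* KD, or 0.660, 0.523 and 0.631 FPKM against 0.662, 0.724 and 1.21 FPKM, groups that only just did not overlap, and shares 29.7% of its exon bases with AL669918.1. In both peptide exchange heterodimers 1 subunit thus had more reads counted than its partner, *HLA-DMA* over *HLA-DMB* and *HLA-DOB* over *HLA-DOA*, in every library. *HLA-DMA* and *HLA-DMB* share 6.87% and 9.41% of their exon bases with AL645941.2 on the same strand. Of the 100-base stretches of their principal coding transcripts, 7.32% and 26.3% also occur in AL645941.2, so some reads could have been split or dropped.

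Class II promoters are known for an X box, bound by the RFX complex, followed by a Y box, and their sequences are shown for a chain that was almost unread and a gene that was expressed. The 200 bases before the gene start (RefSeq, GRCh38.p14, 5′ to 3′) are given for *HLA-DRB1* (chr6:32589849-32590048, minus) and *HLA-DMA* (chr6:32953098-32953297, minus). Capitals mark matches on either strand to CCAAT and to an 11-base X box consensus that leaves 3 positions free.
HLA-DRB1: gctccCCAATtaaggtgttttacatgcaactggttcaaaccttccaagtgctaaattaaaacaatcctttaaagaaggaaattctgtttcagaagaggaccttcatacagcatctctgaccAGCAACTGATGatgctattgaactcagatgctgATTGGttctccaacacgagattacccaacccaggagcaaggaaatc
HLA-DMA: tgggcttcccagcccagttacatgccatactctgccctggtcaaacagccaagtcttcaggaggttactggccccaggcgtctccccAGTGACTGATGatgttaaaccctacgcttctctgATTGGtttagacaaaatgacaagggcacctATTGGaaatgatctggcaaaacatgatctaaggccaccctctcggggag
The X box match starts at -79 in *HLA-DRB1* and at -113 in *HLA-DMA*, with a CCAAT match downstream in each. It was AGNNACNGATG in letters and was found in *HLA-DRB1*, *HLA-DRB5*, *HLA-DQB1*, *HLA-DMA* and *HLA-DMB* of the 30 genes, and in 0.817% of all promoters. These 5 genes ranged from 0 reads to 4.56 FPKM in a library, so genes with the same match differed widely in level.

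The regulators were expressed unequally. *RFX5*, *RFXAP* and *RFXANK* encode the 3 subunits of the RFX complex, which binds the X box of class II and class I promoters. *RFX5* (ENSG00000143390, chromosome 1, 151340640 to 151347357, minus strand) was 71.5, 69.6 and 68.9 FPKM in control and 74.1, 74.3 and 74.6 FPKM in *PRMT1* KD. The groups did not overlap, the step being 106% of the control mean (difference 0.086, 95% interval -0.0027 to 0.17, limma adjusted p = 0.269). *RFXANK* was 21.1, 21.8 and 20.6 FPKM against 20.2, 19.6 and 15.6 FPKM. Its groups did not overlap either, in the opposite direction (difference -0.20, 95% interval -0.42 to 0.024, limma adjusted p = 0.304), and the difference was -0.088 without *PRMT1* KD replicate 3. *RFXAP* was 9.35, 10.9 and 11.1 FPKM against 8.48, 9.01 and 10.8 FPKM, overlapping (difference -0.14, limma adjusted p = 0.493). Exons of other genes on the opposite strand cover 23.3% of the exon bases of *RFXANK*, and the strand setting of the counting is not given in the sources used here. Such cover was 28.5% for *HLA-F*, 25.8% for *HLA-G*, 20.6% for *PSMB8* and 17.8% for *HLA-B*, and lower for other genes.

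*NLRC5*, the transactivator of class I genes, was 3.20, 3.18 and 2.92 FPKM in control and 3.49, 3.19 and 3.26 FPKM in *PRMT1* KD, overlapping (difference 0.074, limma adjusted p = 0.614). *CIITA*, the transactivator of class II genes (ENSG00000179583, chromosome 16, 10866222 to 10943021, plus strand), lay under the filter. It was 0.241, 0.218 and 0.216 FPKM in control and 0.315, 0.284 and 0.297 FPKM in *PRMT1* KD, from 83, 73 and 74 reads against 108, 85 and 94 reads. The *PRMT1* KD libraries all lay above the control libraries, at 133% of the control mean. With no filter, the limma adjusted p was 0.686, and voom on the reads gave a log2 fold change of 0.41 (unadjusted p = 0.0395, adjusted p = 0.352), so the difference did not pass the test. *CIITA* shares 11.5% of its exon bases with AC133065.3 on the same strand. Exons of AC133065.1 and *DEXI* on the opposite strand cover 12.4%. Whether all of the reads counted for *CIITA* came from it was not tested.

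*MICA* and *MICB* encode ligands of the activating NK cell receptor NKG2D and are known to be induced by cell stress. *MICB* (ENSG00000204516, chromosome 6, 31494881 to 31511124, plus strand) was 11.4, 10.8 and 10.1 FPKM in control and 12.3, 14.2 and 12.1 FPKM in *PRMT1* KD. The groups did not overlap, and *MICB* had the smallest adjusted p of the 22 genes (difference 0.24, standard error 0.0766, 95% interval 0.054 to 0.42, limma adjusted p = 0.156). *MICA* was 4.56, 3.48 and 4.54 FPKM against 5.81, 5.76 and 4.10 FPKM. Replicates 1 and 2 of *PRMT1* KD lay above all control libraries and replicate 3 among them (difference 0.26, 95% interval -0.076 to 0.59, limma adjusted p = 0.37), and the difference was 0.15 without control replicate 2 and 0.39 without *PRMT1* KD replicate 3. The sum of both was 15.97, 14.32 and 14.62 FPKM in control and 18.11, 19.99 and 16.23 FPKM in *PRMT1* KD, without overlap (exact two-sided permutation p = 0.1).

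Other genes of the pathway were counted from lists written by role, holding 101 genes of which 66 were tested. With limma, 3 of the 66 had an adjusted p under 0.05, 1 higher and 2 lower, against 1.07% of all genes tested higher and 0.986% lower. The 2 lower genes were of the 10 listed for class II lysosomal processing, 8 of them tested. Of these 8, the difference was above 0 for 4 and below 0 for 4, with a median of -0.0089. *CTSB*, which encodes the lysosomal protease cathepsin B, was 129, 119 and 115 FPKM in control and 98.2, 96.5 and 93.8 FPKM in *PRMT1* KD. It fell by 0.33 on the log2 scale (standard error 0.0528, limma adjusted p = 0.039). *LGMN*, which encodes the asparaginyl endopeptidase legumain, was 46.9, 47.2 and 45.1 FPKM against 39.0, 39.5 and 37.3 FPKM and fell by 0.26 (standard error 0.0439, limma adjusted p = 0.0425). The higher gene was *LAP3*, a cytosolic leucine aminopeptidase among 8 trimming genes tested, at 31.5, 32.9 and 33.0 FPKM against 38.9, 37.3 and 39.5 FPKM. It rose by 0.24 (standard error 0.0446, limma adjusted p = 0.0496). In each of the 3 the groups did not overlap. When each library was left out in turn, none of the 3 kept an adjusted p under 0.05, with *CTSB* at 0.051 to 0.149, *LGMN* at 0.0694 to 0.182 and *LAP3* at 0.0809 to 0.199. The 3 also missed the threshold without the filter, without trend and in an ordinary linear model (adjusted p of 0.0844 to 0.116), and *LAP3* with a pseudocount of 0.1 (0.0517) and with median scaling (0.0634) as well.

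In the remaining lists 0 genes had a limma adjusted p under 0.05. These were 7 genes of the constitutive proteasome and its activator, 10 of class I folding and export, 17 of transcription of MHC genes, 8 of interferon receptors and kinases, 1 of NKG2D ligands and class I-like molecules, 5 of costimulation and checkpoints and 2 of MHC pseudogenes and further class II genes. *IRF1*, an interferon regulatory factor, had a mean of 1.03 FPKM in control and 0.959 FPKM in *PRMT1* KD and lay just under the filter. *IFNGR2*, a chain of the interferon gamma receptor, had the largest difference of its list, 0.28 (limma adjusted p = 0.062), without overlap between the groups. The largest differences of the other lists were 0.26 for *KAT2B*, a histone acetyltransferase (limma adjusted p = 0.135), 0.20 for *CD47*, the ligand of the phagocytosis checkpoint SIRP alpha (limma adjusted p = 0.149), 0.16 for *PSME1*, a subunit of the proteasome activator (limma adjusted p = 0.219), 0.16 for *SEC23A*, a coat protein of export vesicles (limma adjusted p = 0.341), and -0.028 for *MR1*, which presents vitamin metabolites (limma adjusted p = 0.801).

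The class I pseudogene *HLA-H* had the largest difference among all these genes, 0.73, with a wide 95% interval of -0.063 to 1.53 (limma adjusted p = 0.287). It had 17, 18 and 22 reads in control and 70, 52 and 15 in *PRMT1* KD, or 0.937, 1.02 and 1.21 FPKM against 3.87, 3.30 and 0.898 FPKM. Replicates 1 and 2 of *PRMT1* KD stood above all other libraries and replicate 3 below them. Without *PRMT1* KD replicate 3 the difference was 1.16 (limma adjusted p = 0.046). *HLA-H* closely resembles the classical heavy chain genes, from which its reads may not be separable, and how reads matching several genes were assigned is not given in the sources used here.

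**Figure D4:**
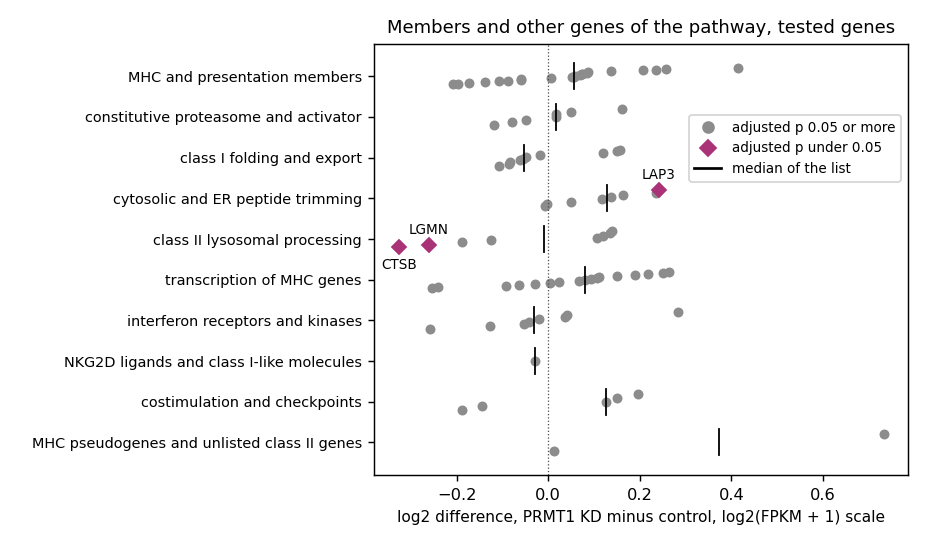
Log2 differences (*PRMT1* KD minus control, log2(FPKM + 1) scale) of the tested genes among the 34 and in each further list, 1 symbol per gene, with the median of each list as a line. *CTSB* and *LGMN* to the left and *LAP3* to the right are the genes with a limma adjusted p under 0.05, and the *HLA-H* point lies farthest right at 0.73.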

How the data were processed

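The authors deposited a table of FPKM values for every gene in each library, beside gene lengths and coordinates. The submitters' processing notes name featureCounts 1.5.0-p3 and hg38. The aligner and annotation are not given in the sources used here. All 34 genes had the coordinates and union exon lengths of GENCODE 29. Reads worked back were whole within 0.01 read for 100% of values. The size dividing each library equalled its median-of-ratios size factor times the geometric mean of the totals (ratio 1), so the deposited values are already scaled between libraries. Library depth was 14439217 to 16465026 reads.

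Differences were tested with limma 3.58.1 in R 4.3.3 on log2(FPKM + 1) with a mean-variance trend, two-sided with Benjamini-Hochberg adjustment, over 13585 genes with a mean of at least 1 FPKM. All 6 libraries entered, without the replicate number. Groups and numbers came from the sample labels, which do not say that replicates were separate cultures, and the study describes its replicates as dependent, so p-values measure only the spread between these samples. Ratios and sums were compared with exact two-sided permutation tests. The fit was tested on simulated data. Figures were drawn with matplotlib 3.10.9.

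All 34 genes are named, with values in every library for those tested. Of the other lists, genes past the threshold, the largest difference of each list, *PSMB5*, *PSMB6*, *PSMB7* and *IRF1* are named. A result on 1 further gene that this rule covers is not reported here. Members and lists were chosen with earlier results of these data known. *TAPBP* counts only among the 34. *MARCHF1* and *MARCHF8* are listed under their older symbols, *MARCH1* and *MARCH8*. Alternatives covered the pseudocount, filter, scaling, moderation, replicate block, voom on reads and each library left out. No m6A data were analysed here.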

Additional observations from a re-analysis of the deposited data

How the results depend on the processing

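The difference of *PRMT1* kept its direction and an adjusted p under 0.05 in all 18 alternatives, from -2.21 to -2.09. Among the 22 tested genes, 0 were called in 16 of the 18 alternatives (0 to 0 with each library left out). Both exceptions were chosen after seeing the data. In the first, voom on the reads without a filter called 1 (*HLA-C*, adjusted p = 0.0138). In the other, voom with the replicate block called 3 (*HLA-C* at 0.00184, *MICB* at 0.0182 and *RFXANK* at 0.037). That fit called 2593 of all 13585 genes tested, a larger share than 3 of 22. Counts of all genes called in both fits are given below. The median difference of the genes tested was 0.033 to 0.082 except at -0.027 with a filter on 5 FPKM, which leaves 16 of the 22. The direction held in every alternative for 20 of the 22. *PSMB9* reversed to -0.013 with median scaling, to -0.0069 with quantile normalization, to -0.051 without control replicate 3 and to -0.011 without *PRMT1* KD replicate 2 (range with each library left out -0.051 to 0.046), and *TAP2* to -0.018 without control replicate 3 (range -0.018 to 0.096). With each library left out, the difference moved by over 1.5 times or changed sign for 18 of the 22, and by less for *HLA-B*, *HLA-C*, *MICB* and *RFX5*.

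The number of all genes called was 279 of 13585. It was 35 of 34078 without a filter and 473 of 7710 with a filter on 5 FPKM. It was 43 without trend and 12 with an ordinary linear model. With voom it was 927, with voom without a filter 925 of 34078, and with voom and the block 2593 of 13585. With each library left out it was 13 to 95. The 145 higher and 134 lower became 90 and 145 with median scaling and 222 and 133 after rescaling to TPM. The cause was not tested. The replicate block without voom called 0 of the 22 and 204 of all genes, and *LAP3* missed the threshold in it (adjusted p = 0.0589). Deviations of same-numbered libraries correlated by 0.020, 0.063 and 0.10, and those of differently numbered libraries by -0.075 to 0.019. These values are low, but every library correlated best with its own number. Whether same-numbered libraries belong together cannot be told from them. With each library left out, the log2 difference was 0.10 to 0.16 for the ratio of *PSMB8* to *PSMB5*, 0.040 to 0.13 for *PSMB9* to *PSMB6* and -0.24 to 0.071 for *PSMB10* to *PSMB7*. Depth limits the class II chains most, since 9 of the 34 genes had under 10 reads per library on average.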

Other observations

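Among the tested genes, replicate 3 of the *PRMT1* KD libraries held the highest value of the 6 libraries for *B2M* (322 FPKM), *ERAP1* (27.4 FPKM), *HLA-DMA* (4.56 FPKM) and *RFX5* (74.6 FPKM). It held the lowest for *PSMB10* (5.31 FPKM), *RFXANK* (15.6 FPKM), *TAPBP* (42.4 FPKM), *TAPBPL* (8.90 FPKM) and *HLA-C* (158 FPKM). Under the filter it was highest for *ERAP2* (1.16 FPKM) and *HLA-DOB* (1.21 FPKM), among others. Extremes were not particular to this library. Control replicate 3 was lowest for *TAP1* (20.05 FPKM), *TAP2* (6.54 FPKM), *ERAP1* (24.5 FPKM), *RFX5* (68.9 FPKM) and *MICB* (10.1 FPKM), among others. Replicate 1 of *PRMT1* KD was highest for *PSMB8* (25.7 FPKM), *HLA-F* (4.76 FPKM) and *MICA* (5.81 FPKM), among others. A full count per library was not made. *PRMT1* KD replicate 3 held 15416337 reads on genes, between the other *PRMT1* KD libraries. The ratio of *MICB* to *MICA*, chosen after the values were seen, was 2.51, 3.11 and 2.22 in control and 2.12, 2.47 and 2.96 in *PRMT1* KD, overlapping (exact two-sided permutation p = 0.7).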
